A study of Mus musculus with 22 samples.

Results

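The p53 pathway and cellular senescence were followed in mouse choroid plexus (ChP) through 10 genes of the 33984 genes in the deposited counts: Trp53, Mdm2, Ccng1, Cdkn1a, Cdkn2a, Eda2r, Phlda3, Bax, Trp53inp1 and Sesn2. They were chosen by symbol, as the gene of p53 itself, genes that p53 is known to activate, and a standard senescence gene. The choice used no threshold on the counts, but earlier results of these data were known when it was made. All 10 genes were found in the counts, and 9 of them passed the filter on low counts in every comparison, while Cdkn2a passed in none.

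p53, the product of Trp53, is a transcription factor that accumulates when DNA is damaged or a cell is stressed. It then activates genes that halt the cell cycle, repair DNA or start apoptosis, and also Mdm2, whose protein binds p53 and marks it for degradation, so that the pathway limits itself. Senescence is a lasting exit from the cell cycle that is held by p53 through Cdkn1a and by the products of Cdkn2a. The adult ChP is a sheet of epithelial cells around a vascular stroma, produces cerebrospinal fluid, and divides little.

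The study asked what the homeoprotein OTX2 does in the adult ChP, by RNA sequencing of a conditional and a constitutive knockdown of Otx2. In the conditional model, 3-month-old Otx2lox/lox mice, of a strain labelled S129, received Cre-Tat, a cell-permeable Cre recombinase, or vehicle into the lateral ventricles, and the ChP was taken 15 days later. Both groups carried the floxed alleles, and only the ChP that the injected protein reached could be recombined. ChP of the lateral ventricles (LV) and of the caudal, hindbrain ventricle (4V) was dissected apart, with 5 mice in each Cre-Tat pool and 4 in each vehicle pool. In the constitutive model, of strain B6D2, 4V ChP came from wildtype mice, from heterozygous Otx2+/GFP mice (Otx2 (+/-) in the labels) and from Otx2+/AA mice, an allele on which the labels say no more. Wildtype and Otx2+/GFP mice were 3 months old, and no age is given for Otx2+/AA. Each of the 7 groups held 2 pools, A and B, of males and females together, and each of the 8 conditional pools was sequenced in 2 technical runs. A test over 2 pools against 2 measures the spread between pools only.

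Total counts per pool were 22750019 to 50088408. Of the 16 conditional files, 14 bear a library number that is not the one of the sample they are attached to, and the files were joined by library number. Joined so, both runs of a pool differed by 1.002 to 1.032 times the degrees of freedom of a chi-square test, which is sampling noise, and by 13.2 to 20.5 times when joined as attached. The groups of the conditional model rest on this choice, and Mdm2 and Eda2r in 4V ChP had the opposite sign with the files as attached, at a log2 fold change of -0.475 (standard error, SE, 0.0319) and -0.38 (SE 0.21). The likeness of runs tells which files share a library, and not which group a library number stands for. Otx2, the targeted gene, went against the knockdown labels when counted over its whole transcript, with 19546 to 23575 normalized counts in Cre-Tat pools against 7354 to 8958 in vehicle pools, and 16896 to 19596 in Otx2+/GFP against 5784 to 6894 in wildtype. Otx2+/AA pools held 6467 to 6801. In its sequencing data, the study measured the knockdown on a single exon of Otx2. It lists Otx2 among the genes lower in both models, and checked Cre-Tat samples for lower Otx2 by qPCR. For lower OTX2 protein in each model it cites earlier work. These measures were not repeated here. Counts of single exons were not analysed, so the whole-transcript count is no check of that exon. All groups are therefore named by their labels, and every direction given below is a direction between labels.

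The tissue carried the ChP epithelium markers at a high level in every group, and they differed between labels. The summed normalized count of 8 epithelium markers (Folr1, Kcnj13, Aqp1, Clic6, Enpp2, Prlr, Kl and Otx2) was 469087 to 498210 in Cre-Tat 4V pools against 861815 to 937709 in vehicle, and 551710 to 577541 against 830797 to 861951 in LV. Among these markers Enpp2 has by far the most reads in the study, so it weighs most in the sum. In the test across all genes, 7 of the 8 were lower and 1 (Otx2) higher in Cre-Tat 4V ChP, and 3 were lower and 1 higher in LV. The median log2 fold change of the 8 was -0.86 in 4V and -0.63 in LV. The sum of 8 macrophage markers was 1551 to 2033 in Cre-Tat 4V pools against 940.3 to 1009 in vehicle, with 6 of 8 called higher, and 2262 to 2424 against 1306 to 1474 in LV, with 3 of 8 called higher. None of these 16 markers was at 0 in any group. In the constitutive model the epithelium sum was 809229 to 919813 in Otx2+/GFP against 929639 to 972134 in wildtype, and the macrophage sum 1887 to 2008 against 1809 to 1851. Of the 8 epithelium markers 2 were called lower and 1 higher there, with a median of -0.405, and 1 of 8 macrophage markers was called higher. The 5 T and B cell markers summed to 30.7 to 95.8 normalized counts in Cre-Tat pools and 8.58 to 28.5 in all other pools, with up to 2 of the 5 at 0 in a group. Only 1 of the 5 had enough counts to be tested, and it was called in no comparison. In bulk tissue, fewer cells of a type and less RNA per cell cannot be told apart.

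**Figure D1:**
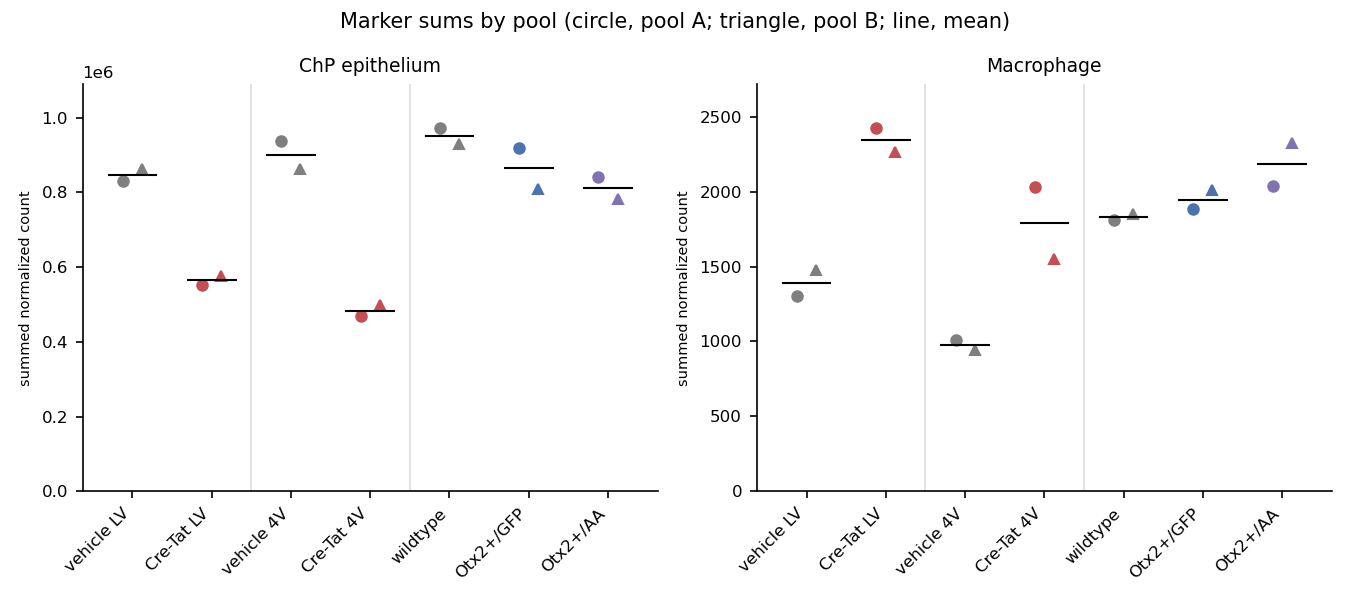
Summed normalized counts (y axis) of 8 ChP epithelium markers (left) and 8 macrophage markers (right) in each of 14 pools by group (x axis). Circles are pools A, triangles pools B, and lines the mean of both. The Cre-Tat pools sit below the vehicle pools for epithelium markers, at 469087 to 577541 against 830797 to 937709, and above the vehicle pools of their own ventricle for macrophage markers.

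Most of what follows is about Mdm2, Eda2r and Cdkn1a, and the 250 bases before their RefSeq start sites are shown so that the promoters can be read beside the counts. The sequences are from RefSeq on GRCm38.p6, 5′ to 3′ on the gene's strand, and capitals mark matches to the p53 half-site consensus, the repeat unit of the p53 response element, which reads the same on both strands. They lie at chr10:117710759-117711008 (minus strand) for Mdm2, chrX:97377210-97377459 (minus strand) for Eda2r, and chr17:29090729-29090978 (plus strand) for the first of the 2 starts of Cdkn1a.
Mdm2: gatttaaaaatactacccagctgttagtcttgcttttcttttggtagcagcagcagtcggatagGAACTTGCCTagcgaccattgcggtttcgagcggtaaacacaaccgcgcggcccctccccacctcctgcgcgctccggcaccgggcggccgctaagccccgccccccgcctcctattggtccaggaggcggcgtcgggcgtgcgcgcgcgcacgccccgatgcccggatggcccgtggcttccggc
Eda2r: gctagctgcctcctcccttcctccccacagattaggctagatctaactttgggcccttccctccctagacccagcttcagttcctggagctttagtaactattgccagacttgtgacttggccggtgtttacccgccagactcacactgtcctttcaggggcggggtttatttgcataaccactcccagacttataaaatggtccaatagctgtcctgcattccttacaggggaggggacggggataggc
Cdkn1a: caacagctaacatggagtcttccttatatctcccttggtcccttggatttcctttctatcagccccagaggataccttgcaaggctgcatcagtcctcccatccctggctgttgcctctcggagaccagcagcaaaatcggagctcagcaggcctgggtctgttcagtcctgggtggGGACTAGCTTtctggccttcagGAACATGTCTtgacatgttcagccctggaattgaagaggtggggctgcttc

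The window of Mdm2 held 1 exact match, starting 186 bases before the start, the first window of Cdkn1a held 2, at 73 and 51 bases before it, and the window of Eda2r held none. RefSeq gave 11 such windows for 9 of the genes, Trp53inp1 not among them, and 5 of the 11 held a match: those of Trp53, Mdm2, Ccng1 and Bax, and the first of Cdkn1a. Of all 32851 windows of this length in the table, 7.13% held one. TAATCC, the motif of OTX2, was searched on both strands and found in 1 of the 11 windows, that of Bax at 80 bases before the start, and in 6.25% of all windows. In these 11 windows no match of one motif overlapped one of the other. A match is a run of letters, and binding was not measured here.

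The 10 genes differed widely in level. Per kilobase (kb) of transcript, the mean normalized count over 14 pools was 2009 for Ccng1, the gene of cyclin G1, and 821 for Mdm2. Trp53inp1 stood at 168 and Phlda3 at 163, with overlapping pools, followed by Bax at 87.7. Trp53 (34.1), Sesn2 (32.5) and Cdkn1a (31.8) were neighbours whose pools overlapped, and Eda2r was lowest of the 9 tested genes at 12.9. Cdkn2a, which encodes the cell cycle inhibitor p16INK4a and the MDM2 inhibitor p19ARF, had 4 counts in all pools together, in 1 Cre-Tat 4V pool and in both Otx2+/GFP pools, and 0 in the other 11 pools. A count of 0 allows up to 3 counts, or 0.121 to 0.284 CPM depending on the pool (counts scaled to the sum over the genes used, which was 10558002 to 24833188 a pool), and this limit covers counting error only. No difference in Cdkn2a was detectable at this depth.

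**Figure D2:**
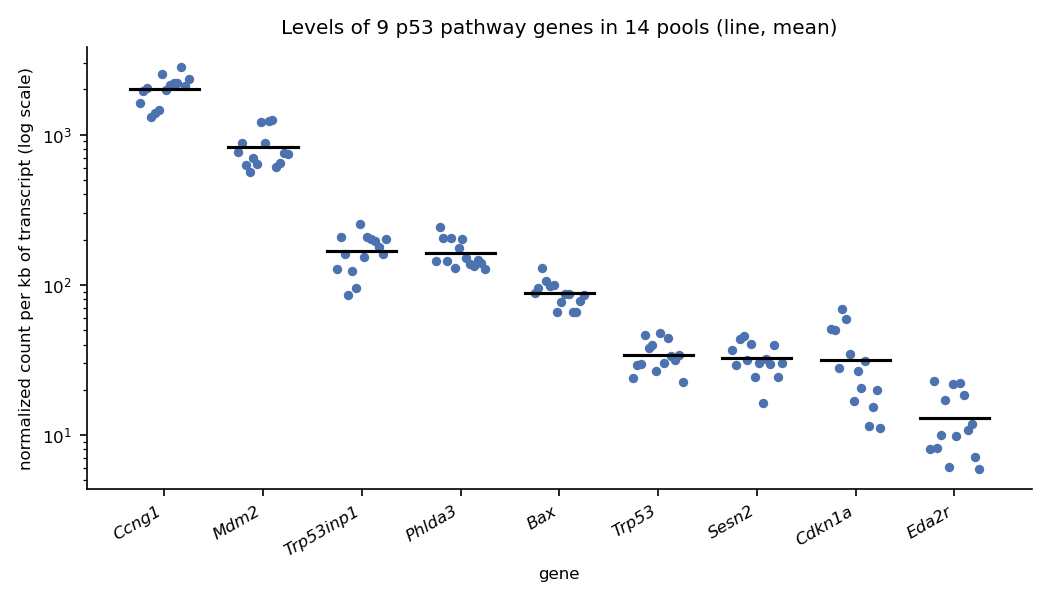
Normalized count per kb of transcript (y axis, log scale) of 9 genes (x axis) in each of 14 pools (points), with the mean as a line. Cdkn2a is left out because 11 of its 14 pools are at 0. The means run from 12.9 for Eda2r to 2009 for Ccng1.

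Of the 9 genes tested, 1 (Mdm2) was called in LV ChP, where 3.24% of all 15002 genes tested were called, and 2 (Mdm2 and Eda2r) in 4V ChP, where 10.7% were. In Otx2+/GFP 1 was called (Eda2r), beside 3.53% of all genes, in Otx2+/AA against wildtype none, beside 0.345%, and between both mutants 1 (Eda2r), beside 2.7%. In Otx2+/AA against wildtype, 1 of the 9 had an unadjusted p under 0.05 in edgeR's quasi-likelihood test, Cdkn1a, beside 1292 of all 14494 genes tested. DESeq2 called 0 of the 9 there. Pools did not overlap for 4 of the 9 genes in LV, 5 in 4V and 6 in Otx2+/GFP ChP, while 42.5%, 50.4% and 49.2% of all genes tested had no overlap, so these counts are near the background. For Otx2+/AA against wildtype 1 of the 9 did not overlap, beside 38.1% of all genes, between both mutants 3, beside 44.5%, and between ventricles 3, beside 53.7%. The median log2 fold change of the 9 genes was 0.19 in LV, 0.18 in 4V and 0.32 in Otx2+/GFP ChP, and 0.00, 0.01 and -0.00 over all genes. With scaling by total counts, the median of all genes moved to 0.17 in LV and 0.15 in 4V ChP, and fold changes are given relative to the scaling that keeps it near 0. Neither interaction called any of the 9 genes: 0.00642% of all genes were called for treatment and ventricle and 1.64% for knockdown and model. In each, 1 of the 9 had an unadjusted p under 0.05 in edgeR's test. This was Eda2r, beside 416 of 15565 genes, and Mdm2, beside 1987 of 15327. DESeq2 also called 0 in both. Between LV and 4V ChP of vehicle pools, where 7.44% of all genes were called, none of the 9 was, and DESeq2 called 0. An unadjusted p under 0.05 in edgeR's test was found for 2 of the 9 (Mdm2 at -0.25 and Eda2r at 0.77), beside 3320 of all 14561 genes. These vehicle pools are also the controls of the Cre-Tat comparisons.

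**Figure D3:**
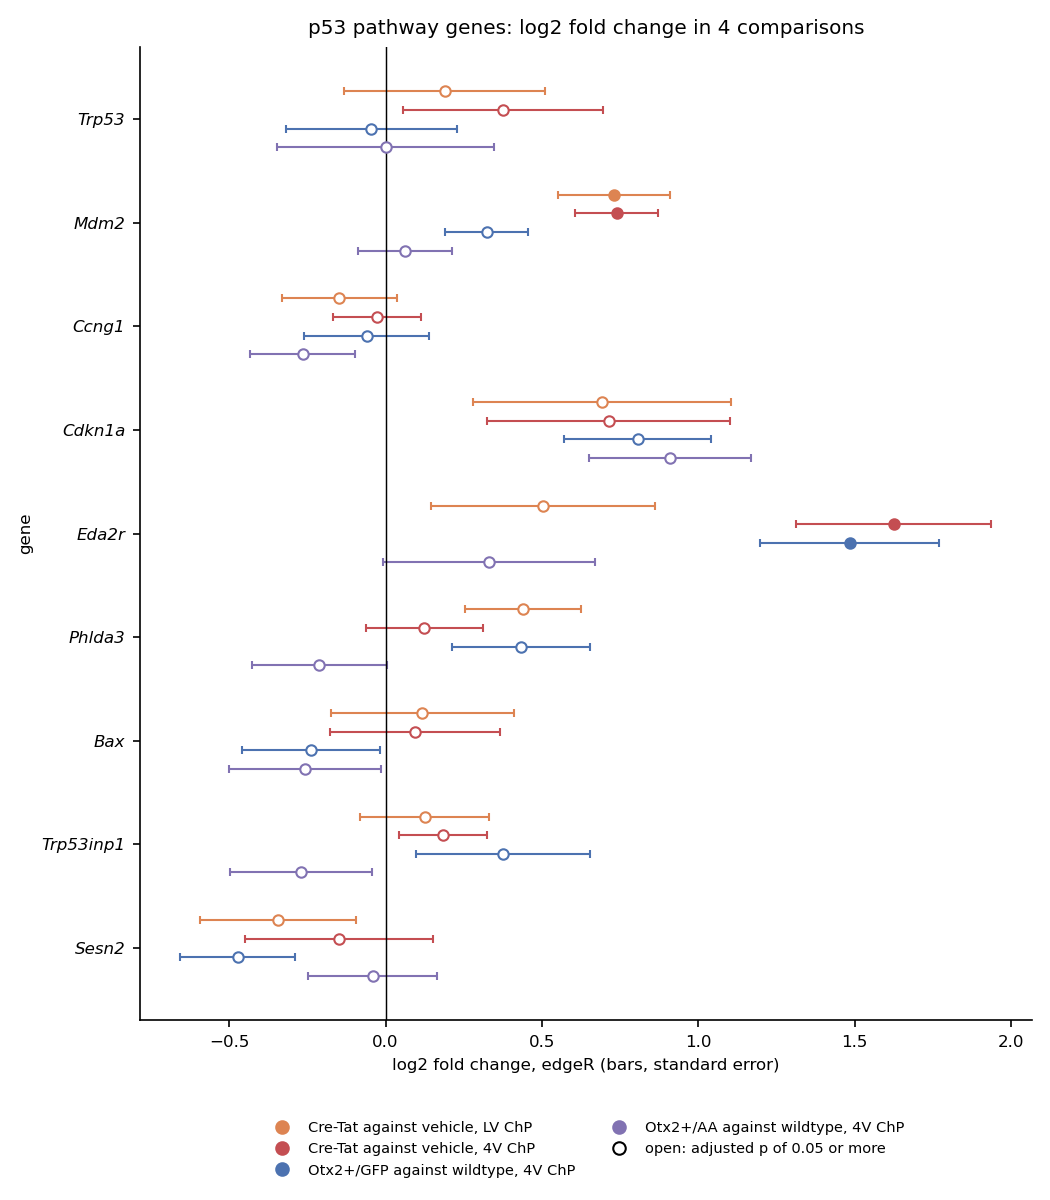
Log2 fold changes (x axis) of 9 genes (y axis) in 4 comparisons, as points with the standard error as bars. Filled points passed an adjusted p of 0.05 in edgeR's quasi-likelihood test: Mdm2 in LV (0.73) and 4V (0.74), and Eda2r in 4V (1.63) and Otx2+/GFP (1.48). The Otx2+/GFP and Otx2+/AA comparisons share their wildtype pools.

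Mdm2, the main negative regulator of p53, was higher in Cre-Tat than in vehicle pools of both ventricles. In 4V ChP, Cre-Tat pools A and B had 3897 and 3916 normalized counts, and vehicle pools had 2354 and 2342. The pools of a group were almost equal and the groups far apart. The log2 fold change was 0.74 (SE 0.13), a 1.67-fold rise, with an adjusted p of 0.001091 in edgeR's quasi-likelihood test with the Benjamini-Hochberg adjustment over all genes tested, and it stayed called without any 1 of the 4 pools. In LV ChP, Cre-Tat pools A and B had 3803 and 2750 normalized counts, against 1912 and 2046 in vehicle. Pool A was well above pool B, and both were above the vehicle pools. The log2 fold change was 0.73 (SE 0.18), or 1.66-fold, with an adjusted p of 0.04014 in the same test. This call was lost without Cre-Tat pool A (0.49, adjusted p 0.0878), without vehicle pool A (0.68, adjusted p 0.302), without vehicle pool B (0.78, adjusted p 0.144) and with DESeq2 size factors in edgeR (0.72, adjusted p 0.0515). The response of Mdm2 did not detectably differ between ventricles, with an interaction of -0.00 on the log2 scale (SE 0.22, adjusted p 0.9997).

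All 9 annotated Mdm2 transcripts in the counts had a higher mean in Cre-Tat than in vehicle pools, with ratios of 1.6 to 1.85 in 4V and 1.63 to 1.93 in LV ChP. They share most of their exons, and reads of a shared exon seem to enter the count of each, so these ratios are not independent of each other. The macrophage markers were higher and the epithelium markers lower in the same pools, as given above. Their part in the rise of Mdm2 was not tested.

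In the constitutive model, Otx2+/GFP pools had 2751 and 2211 normalized counts of Mdm2 and wildtype pools 1986 and 1989. The groups did not overlap, but the log2 fold change of 0.32 (SE 0.13) did not pass the test (edgeR's quasi-likelihood test, adjusted p 0.2411). It was 0.15 without Otx2+/GFP pool A and 0.48 without pool B. Otx2+/AA pools, at 2391 and 1780, lay on both sides of the wildtype pools, with a log2 fold change of 0.06 (SE 0.15, adjusted p 0.9607). Between models in 4V ChP, the log2 response in Cre-Tat pools minus that in Otx2+/GFP pools was 0.40 (SE 0.18, adjusted p 0.3655), which did not pass, and model, strain and sequencing run cannot be told apart in that difference.

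Eda2r had the largest fold change of the 9 genes in 4V and in Otx2+/GFP ChP. It encodes a receptor of the tumour necrosis factor receptor family that binds ectodysplasin A2 and is activated by p53. In 4V ChP, Cre-Tat pools had 106 and 87.4 normalized counts against 33.9 and 28.2 in vehicle. Every Cre-Tat pool was above every vehicle pool. The log2 fold change was 1.63 (SE 0.31), or 3.08-fold, with an adjusted p of 0.002178 in edgeR's quasi-likelihood test, and it stayed called without any 1 of the 4 pools. Otx2+/GFP pools had 109 and 81.3 normalized counts, and wildtype pools had 38.8 and 29. Here too the groups were apart, with a log2 fold change of 1.48 (SE 0.29), or 2.80-fold, and an adjusted p of 0.02773. That call was lost without Otx2+/GFP pool A, at 1.25 (adjusted p 0.126). The responses of both models in 4V ChP did not detectably differ (interaction 0.13, SE 0.42, adjusted p 0.931). The summed astrocyte and oligodendrocyte markers were higher in the same pools, at 1153 to 1288 in Cre-Tat 4V against 817 to 1139 in vehicle (6 markers, of which 5 were tested and 2 called higher) and at 2056 to 2863 in Otx2+/GFP against 1557 to 1590 in wildtype (1 of the 5 called higher). The summed fibroblast markers were lower in Cre-Tat 4V, at 5809 to 6811 against 8701 to 8887, and higher in Otx2+/GFP, at 16132 to 17942 against 12461 to 13692 (1 of 5 called in each). In Cre-Tat 4V the median log2 fold change of the tested markers was near 0 for both sets, at 0.03 for astrocytes and oligodendrocytes and 0.004 for fibroblasts. In Otx2+/GFP these medians were 0.69 and 0.515. In Cre-Tat LV, where Eda2r was not called, the astrocyte and oligodendrocyte sum was 1985 to 2227 against 1044 to 1734 in vehicle. There 2 of the 5 were called higher, with a median of 0.64. Otx2+/AA pools held 1490 to 2110, with none called against wildtype. The fibroblast sums were 8046 to 8427 against 10483 to 11044 in LV, and 10886 to 12627 in Otx2+/AA. None of these markers was at 0 in any group, and their part in the level of Eda2r was not tested.

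In LV ChP the pools of Eda2r overlapped. Cre-Tat pool A had 104 normalized counts and pool B 46.4, against 51 and 56 in vehicle, so that 1 Cre-Tat pool was high and the other lay below both vehicle pools. The log2 fold change was 0.50 (SE 0.36, adjusted p 0.6284), and without Cre-Tat pool A it was -0.19. The interaction of treatment and ventricle was -1.12 (SE 0.51), with an adjusted p of 0.9997 in edgeR's quasi-likelihood test, so a difference between ventricles was not established. Vehicle pools of LV ChP held more Eda2r than those of 4V ChP, at a log2 difference of 0.77 (SE 0.35, adjusted p 0.2097), which did not pass.

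Otx2+/AA pools had 38.5 and 47.8 normalized counts of Eda2r and overlapped with the wildtype pools (log2 fold change 0.33, SE 0.34, adjusted p 0.8732). Against Otx2+/GFP they were lower, by a log2 fold change of -1.15 (SE 0.27, adjusted p 0.04296 in edgeR's quasi-likelihood test), with no overlap of pools. This call was close to the threshold. It was lost without Otx2+/AA pool A (-1.0, adjusted p 0.078), without Otx2+/GFP pool A (-0.92, adjusted p 0.192), with DESeq2 (-1.16, adjusted p 0.0773), and with scaling by total counts (-1.07, adjusted p 0.0586). It was also lost in the fit of all 3 groups together (-1.15, adjusted p 0.062), and with counts summed over transcripts (-0.94, adjusted p 0.139). The raw counts of Eda2r were 16 to 136 per pool. All 4 of its transcripts had a higher mean in Cre-Tat 4V than in vehicle pools, with ratios of 3.07 to 5.1, and in Otx2+/GFP than in wildtype pools, with ratios of 1.87 to 2.8.

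Cdkn1a encodes p21, the inhibitor of cyclin-dependent kinases through which p53 halts the cell cycle. Its log2 fold change was 0.69 to 0.91 in the 4 comparisons with a control, and it passed the test in none. With 1 pool left out at a time it ranged from 0.34 to 1.00 in LV and from 0.38 to 1.24 in 4V ChP. Of its 3 transcripts, 1 had a higher mean in Cre-Tat than in vehicle pools of LV ChP (ratios of 0.756 to 1.62), and summed over transcripts the log2 fold change there was 0.28 (adjusted p 0.871 in edgeR). In 4V ChP, Otx2+/GFP and Otx2+/AA all 3 had a higher mean. In LV ChP, Cre-Tat pools had 32.2 and 50.8 normalized counts and vehicle pools 21.9 and 29.4, and in 4V ChP the values were 39.3 and 59.6 against 38.2 and 21.1. The groups did not overlap in either ventricle, but in 4V ChP Cre-Tat pool A and vehicle pool A were nearly equal. The log2 fold changes were 0.69 (SE 0.41, adjusted p 0.5261) and 0.71 (SE 0.39, adjusted p 0.3033) in edgeR's quasi-likelihood test. In the constitutive model, Otx2+/GFP pools had 96.3 and 114 normalized counts, Otx2+/AA pools 96.6 and 131, and the wildtype pools that both share 53.8 and 66.5. The pools of both mutants lay above both wildtype pools. The sum of 6 markers of proliferating cells was lower in the same pools, at 142 to 155 normalized counts in Otx2+/GFP and 95.5 to 158 in Otx2+/AA against 174 to 215 in wildtype, with 1 of the 4 tested called lower in each and none at 0. In Cre-Tat and vehicle pools these sums overlapped, with 1 of the 4 called lower in 4V ChP and none in LV ChP. The median log2 fold change of the 4 tested markers was -0.03 in Otx2+/GFP and -0.52 in Otx2+/AA. It was above 0 in Cre-Tat pools, at 0.77 in 4V and 0.40 in LV ChP. Their part in the level of Cdkn1a was not tested. The log2 fold change was 0.81 for Otx2+/GFP (SE 0.23, adjusted p 0.1098 in edgeR's quasi-likelihood test) and 0.91 for Otx2+/AA (SE 0.26, adjusted p 0.1951). The latter passed without the filter on low counts (0.92, adjusted p 0.0296) and without wildtype pool B (1.07, adjusted p 0.0473). On the antisense strand, 4.86% of the bases of the Cdkn1a transcript overlap an exon of another gene, and whether counting used the strand is not given in the sources used here.

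**Figure D4:**
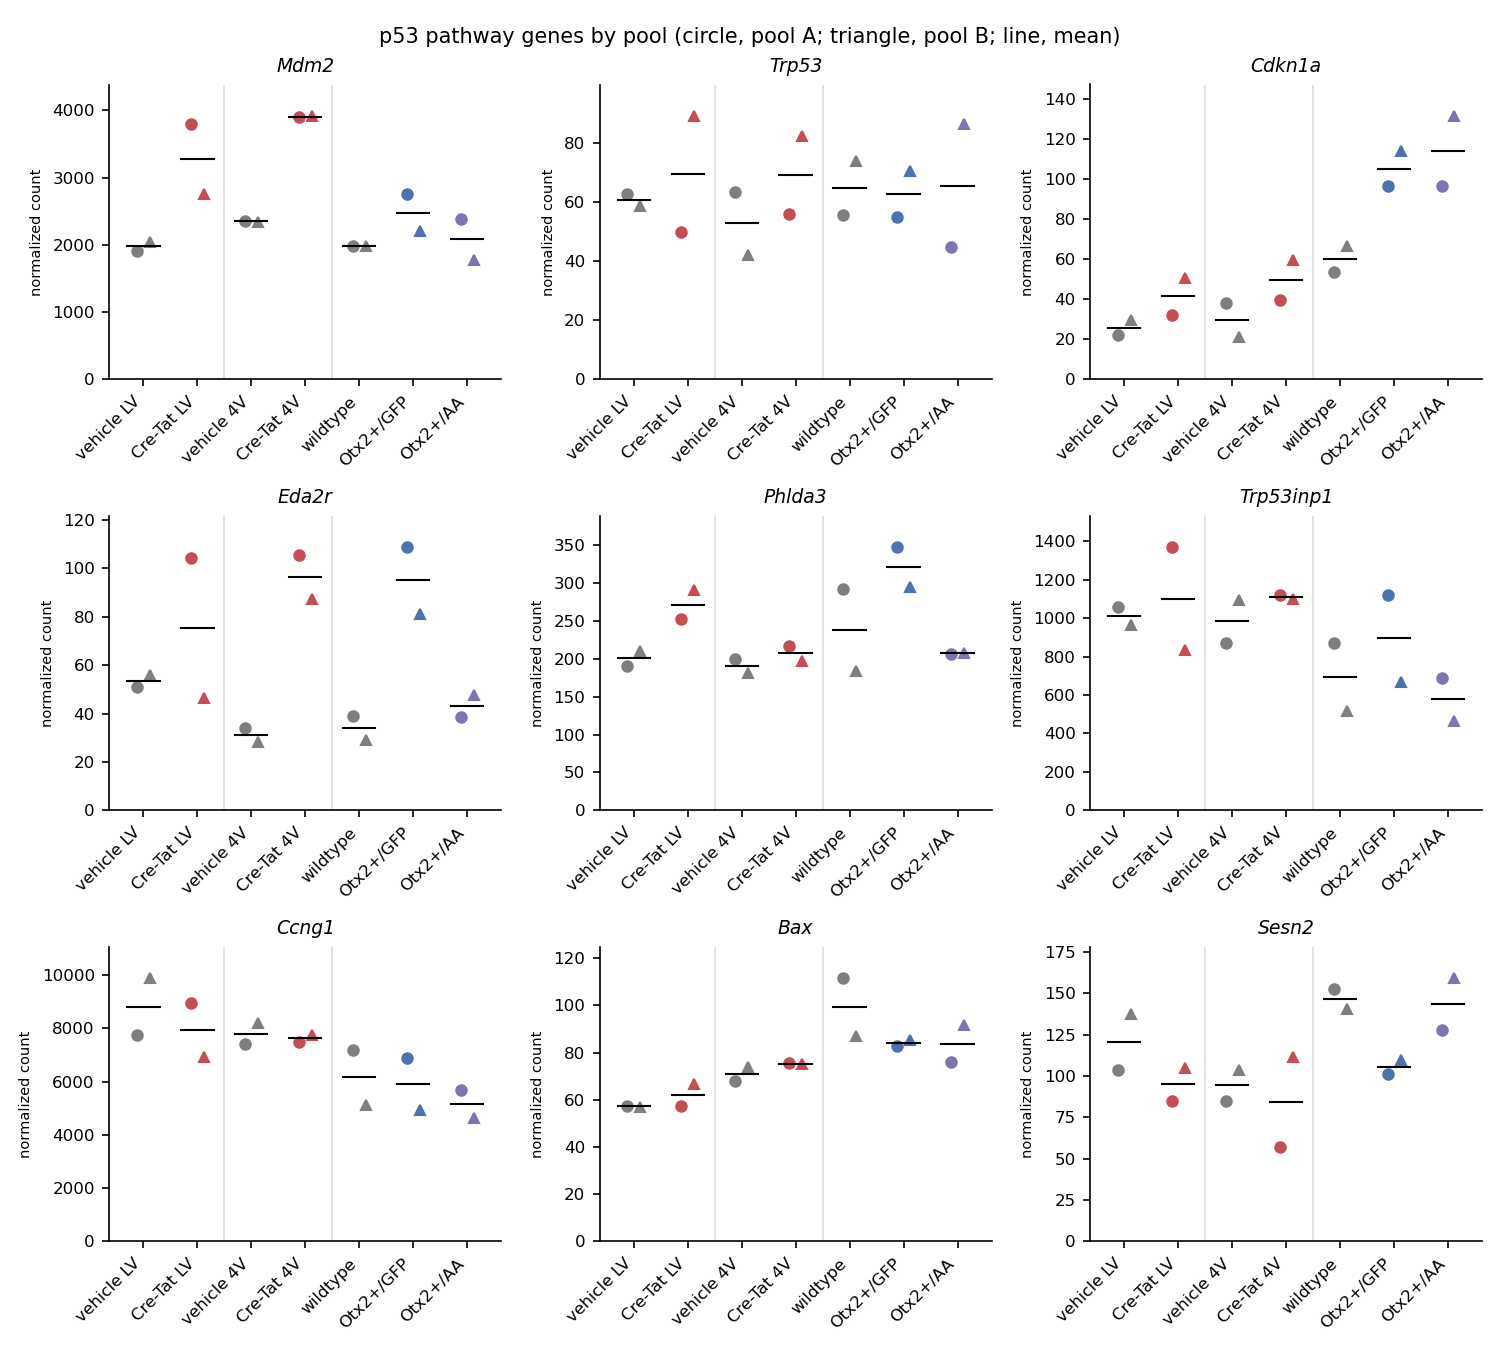
Normalized counts (y axis, from 0) of 9 genes of the p53 pathway in each of 14 pools by group (x axis), with circles for pools A, triangles for pools B and a line for their mean. Mdm2 stands at 3897 and 3916 in Cre-Tat 4V against 2354 and 2342 in vehicle, Eda2r is high in Cre-Tat 4V, in Otx2+/GFP and in 1 of the 2 Cre-Tat LV pools, and Cdkn1a is higher in the Otx2+/GFP and Otx2+/AA pools than in wildtype.

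Trp53 itself was not called in any comparison. It had 55.9 and 82.6 normalized counts in Cre-Tat 4V pools against 63.6 and 42.3 in vehicle, 49.8 and 89.3 in Cre-Tat LV pools against 62.9 and 58.8, and 54.9 and 70.6 in Otx2+/GFP against 55.8 and 74 in wildtype. The pools overlapped in each comparison, and the log2 fold changes were 0.38 (SE 0.32), 0.19 (SE 0.32) and -0.05 (SE 0.27). Ccng1, a p53 target whose product guides a phosphatase to MDM2, was the most abundant of the genes. Its log2 fold changes were -0.03 (SE 0.14) in 4V, -0.15 (SE 0.18) in LV and -0.06 (SE 0.20) in Otx2+/GFP ChP, with overlapping pools throughout.

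Phlda3, whose product restrains the kinase AKT, was higher in LV Cre-Tat pools, at 253 and 291 normalized counts, than in vehicle pools at 190 and 211. The log2 fold change of 0.44 (SE 0.18) had an adjusted p of 0.2779 in edgeR's quasi-likelihood test, and did not pass. In Otx2+/GFP it was 0.43 (SE 0.22, adjusted p 0.3437), where wildtype pool A, at 292, lay near the Otx2+/GFP pools (348 and 295) and pool B, at 185, far below. Without wildtype pool A the log2 fold change was 0.80 (adjusted p 0.0179), and without wildtype pool B it was 0.13 (adjusted p 0.867). The same pool had the same effect on Trp53inp1, a stress-induced p53 target with a role in autophagy, at 869 normalized counts in wildtype pool A and 515 in pool B against 1123 and 669 in Otx2+/GFP. Its log2 fold change was 0.38 (SE 0.28, adjusted p 0.5295), and 0.80 without that pool (adjusted p 0.00369). Without Otx2+/GFP pool A it was -0.05 (adjusted p 0.965), and without wildtype pool B 0.04 (adjusted p 0.962). In Cre-Tat pools Trp53inp1 did not pass, at 0.18 (SE 0.14) in 4V and 0.12 (SE 0.21) in LV ChP.

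Bax, an effector of mitochondrial apoptosis, had log2 fold changes of 0.09 (SE 0.27) in 4V, 0.12 (SE 0.29) in LV and -0.24 (SE 0.22) in Otx2+/GFP ChP, none of which passed. An annotated transcript of another gene on the same strand shares 22.1% of the bases of the Bax transcript, so its counts may hold reads of that gene. Sesn2, a sestrin that restrains the growth kinase complex mTORC1, had values below 0 in these comparisons, at -0.15 (SE 0.30) in 4V, -0.34 (SE 0.25) in LV and -0.47 (SE 0.18, adjusted p 0.2155) in Otx2+/GFP ChP. In the last of these, Otx2+/GFP pools had 101 and 110 normalized counts against 152 and 141 in wildtype, without overlap. It did not pass the test (edgeR's quasi-likelihood test).

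The wider pathway was followed through 5 lists. The 15 regulators of p53 included the kinases Atm and Chek2 and the MDM2 relative Mdm4. None was called in LV, 4V or Otx2+/GFP ChP, where 15, 14 and 15 were tested. Their medians were -0.01, -0.04 and 0.09 on the log2 scale. Between LV and 4V ChP of vehicle pools, 3 of 14 were called, all lower in LV, beside 7.44% of all genes. These were Mdm4 (-0.87, SE 0.23, adjusted p 0.0382 in edgeR's quasi-likelihood test), Prkdc (-0.64, SE 0.14) and Trp53bp1 (-0.61, SE 0.165). Without vehicle LV pool B they stood at -0.44, -0.48 and -0.34. Of 12 cell cycle inhibitors and RB family genes, 11 were tested and none was called in LV, 4V or Otx2+/GFP ChP. Their medians were -0.07, 0.09 and 0.05. In these comparisons 3.24%, 10.7% and 3.53% of all genes tested were called, so 0 calls in lists this short is near the background. DESeq2 was run on all genes, but the genes it called within these lists were not counted.

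Of 25 further p53 targets, 24 were tested, and 1 was called in LV, 4 in 4V and 0 in Otx2+/GFP ChP, with medians near 0 (0.03, 0.00 and -0.06), where 3.24%, 10.7% and 3.53% of all genes tested were called. The 4 in 4V ChP went in both directions. Plk3, a stress-activated polo-like kinase, had 495 and 404 normalized counts in Cre-Tat pools against 235 and 190 in vehicle (log2 fold change 1.08, SE 0.18, adjusted p 0.000736). Gdf15, a secreted stress cytokine, had 130 and 78.8 against 50.9 and 40.5 (1.18, SE 0.32, adjusted p 0.0209). The call of Gdf15 was lost without Cre-Tat pool A (0.77, adjusted p 0.217), without vehicle pool B (1.03, adjusted p 0.0579) and with DESeq2 (1.19, adjusted p 0.0536). Plk2, another polo-like kinase, was lower, at 1313 and 1173 against 2301 and 2150 (-0.84, SE 0.14, adjusted p 0.000461). Perp, a desmosomal membrane protein linked to apoptosis, was lower at 2134 and 2037 against 3341 and 3073 (-0.62, SE 0.13, adjusted p 0.00502), and not called without vehicle pool A (-0.54, adjusted p 0.0935). Between ventricles of vehicle pools and between both mutants Plk3 was the 1 of 24 called, beside 7.44% and 2.7% of all genes. It was lower in LV than in 4V ChP (-0.74, SE 0.197, adjusted p 0.0389 in edgeR). It was also lower in Otx2+/AA than in Otx2+/GFP (-0.98, SE 0.235, adjusted p 0.0488). DESeq2 called neither (adjusted p 0.105 and 0.0691). Between Cre-Tat and vehicle in LV ChP, Plk2 was the 1 called, at 1129 and 1142 against 1981 and 1657 (-0.68, SE 0.16, adjusted p 0.0343). That call was lost without Cre-Tat pool A (-0.66, adjusted p 0.0575), without vehicle pool A (-0.55, adjusted p 0.474), without vehicle pool B (-0.80, adjusted p 0.075) and with total counts (-0.51, adjusted p 0.153).

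Of 18 BCL2 family and caspase genes, 14 were tested in 4V ChP and 1 was called, beside 10.7% of all genes: Mcl1, which encodes an antiapoptotic protein. It had 4339 and 4288 normalized counts in Cre-Tat pools against 2343 and 2479 in vehicle (log2 fold change 0.84, SE 0.13, adjusted p 0.000363 in edgeR's quasi-likelihood test). The groups were far apart beside the spread within them. In LV ChP 15 of the 18 were tested and none was called, and Mcl1 had 4403 and 3165 against 2504 and 2685 (0.55, SE 0.18, adjusted p 0.14). In Otx2+/GFP, again with none of 15 called, it stood at 0.21 (SE 0.12, adjusted p 0.389). Between ventricles of vehicle pools 1 of 14 was called, Bad, beside 7.44% of all genes. It was lower in LV ChP (-0.78, SE 0.14, adjusted p 0.00451).

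Of 23 senescence-associated genes, 12 to 14 were expressed highly enough to be tested. In 4V ChP 4 of 12 were called, 2 higher and 2 lower, in LV 1 of 14, and in Otx2+/GFP 0 of 14, with medians of 0.41, 0.42 and 0.03, where 10.7%, 3.24% and 3.53% of all genes tested were called. Icam1, an adhesion molecule for leukocytes, was higher in both ventricles, at 430 and 316 normalized counts against 168 and 211 in 4V (log2 fold change 0.99, SE 0.20, adjusted p 0.00308) and at 639 and 607 against 352 and 413 in LV ChP (0.71, SE 0.17, adjusted p 0.0335). The LV call was lost without vehicle pool A (0.59, adjusted p 0.411), without vehicle pool B (0.83, adjusted p 0.0804) and with counts summed over transcripts (0.70, adjusted p 0.0741). In Otx2+/GFP, Icam1 stood at -0.32 (SE 0.16, adjusted p 0.33), and the difference between models was 1.30 (SE 0.27, adjusted p 0.0276). This difference was not called without Cre-Tat pool A (1.06, adjusted p 0.087), vehicle pool A (1.14, adjusted p 0.174), vehicle pool B (1.47, adjusted p 0.0774), Otx2+/GFP pool A (1.17, adjusted p 0.0898) or wildtype pool B (1.20, adjusted p 0.0947), nor with counts summed over transcripts (1.30, adjusted p 0.0816). Icam1 is also expressed by macrophages and endothelium, and the macrophage sum was higher in the same pools, as given above. Its part was not tested. Between ventricles of vehicle pools 5 of 12 senescence-associated genes were called, all higher in LV, beside 7.44% of all genes. These were Plau (1.89), Spp1 (1.73), Igfbp3 (1.28), Icam1 (1.01) and Igfbp5 (0.74). DESeq2 did not call Plau (adjusted p 0.117). Between both mutants 1 of 14 was called, Spp1, beside 2.7% of all genes. It was lower in Otx2+/AA (-2.43, SE 0.39, adjusted p 0.00554 in edgeR), and DESeq2 did not call it (adjusted p 0.0941).

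Igfbp7, a secreted growth factor binding protein, was higher in 4V ChP, at 7148 and 6284 against 4853 and 4409 (0.54, SE 0.14, adjusted p 0.0194). Its call was lost without Cre-Tat pool A (0.43, adjusted p 0.0727), without vehicle pool A (0.62, adjusted p 0.0811) or pool B (0.47, adjusted p 0.225), and in the fit of all groups of the run (0.53, adjusted p 0.0635). Glb1, the gene of the lysosomal beta-galactosidase that is stained as a mark of senescence, was lower rather than higher, at 295 and 285 normalized counts against 406 and 474 (-0.59, SE 0.16, adjusted p 0.0259). Lmnb1, which encodes lamin B1 and declines in senescent cells, was lower at 85.9 and 127 against 174 and 192 (-0.77, SE 0.23, adjusted p 0.0349). The calls of both were close to the threshold. That of Glb1 was lost without Cre-Tat pool B (-0.56, adjusted p 0.0532) and without vehicle pool B (-0.48, adjusted p 0.193), with DESeq2 (-0.60, adjusted p 0.0553), total counts (-0.45, adjusted p 0.102) and summed transcripts (-0.59, adjusted p 0.073). That of Lmnb1 was lost without Cre-Tat pool A (-0.53, adjusted p 0.194), vehicle pool A (-0.83, adjusted p 0.0524) or vehicle pool B (-0.71, adjusted p 0.102), with DESeq2 (-0.78, adjusted p 0.1), total counts (-0.63, adjusted p 0.0743) and the fit of all groups (-0.78, adjusted p 0.0797).

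**Figure D5:**
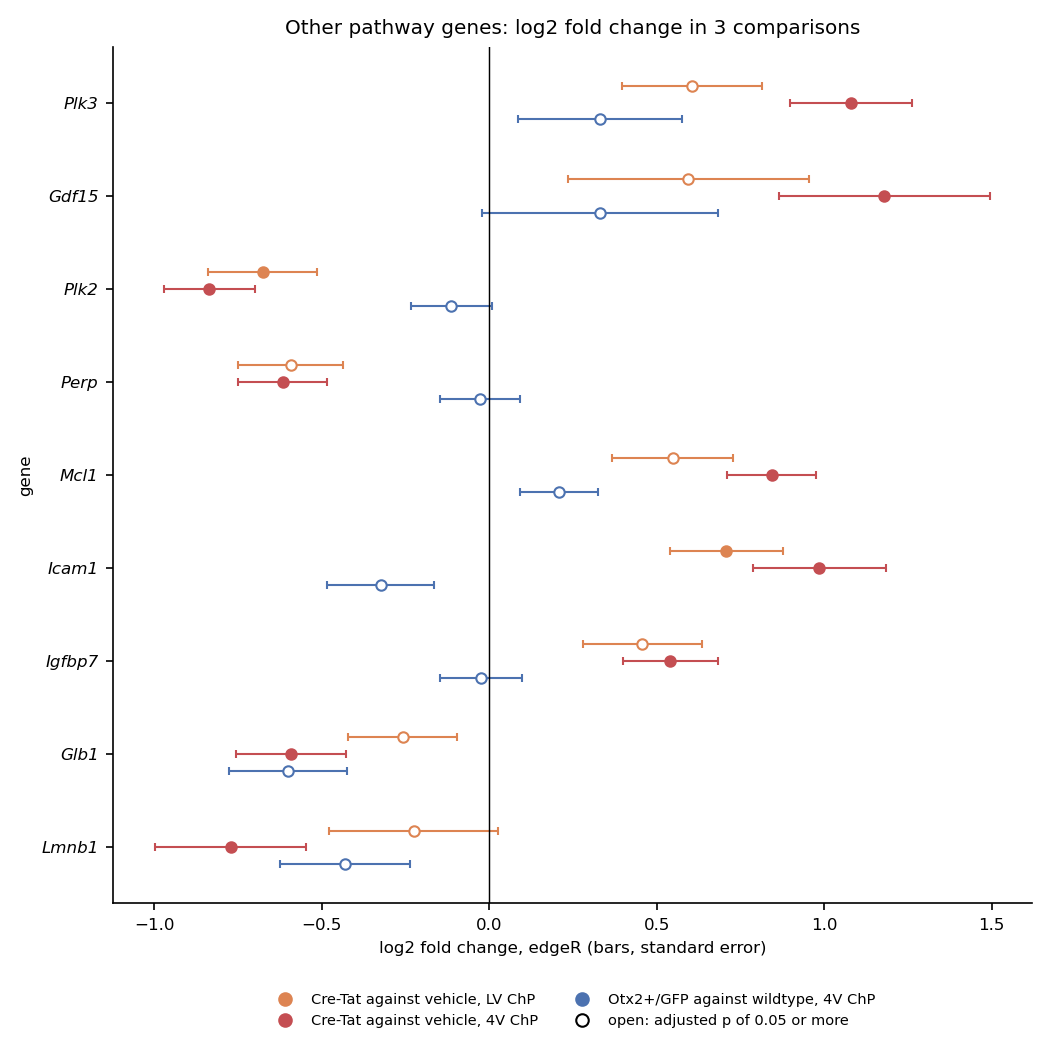
Log2 fold changes (x axis) of 9 further genes of the p53 and senescence lists (y axis) in 3 comparisons, as points with the standard error as bars, chosen because each passed the test in at least 1 of the 3. Filled points passed an adjusted p of 0.05 in edgeR's quasi-likelihood test. In 4V Cre-Tat pools Plk3, Gdf15, Mcl1, Icam1 and Igfbp7 are higher and Plk2, Perp, Glb1 and Lmnb1 lower, and no point of Otx2+/GFP is filled.

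To describe which genes varied like the members over all 14 pools, log2 CPM values were centred within LV conditional, 4V conditional and constitutive pools and correlated with those of 10181 genes. Mdm2 was most like Hspa9, a mitochondrial chaperone (Pearson's r 0.98, n = 14 pools), Parp12 (0.978) and Mcl1 (0.976). Eda2r was most like Arl8b (0.959), Pros1 (0.958) and Aftph (0.947), and Cdkn1a like Vps35l (0.917), Dhx8 (0.907) and Iqck (0.902). For the other 6 genes, the closest gene had an r of 0.906 to 0.941. The pools share labels, runs and depth, and these are the highest of 10181 values for each gene.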

How the data were processed

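RNA of 14 ChP pools was sequenced as 50-base reads. The authors deposited raw counts of reads on Ensembl transcripts, without normalization, in 22 files, and the submitters' processing notes name Bowtie 0.12.9 and HTSeq 0.5.3. The labels name Ribo-Zero depletion and a strand-specific kit, while the study's methods name PolyA+ selection, and the counting strand is not stated. Of 95533 transcripts, 82807 matched GENCODE vM21 (GRCm38) and held 89.5% of the counts. For a gene with several transcripts the one with the highest sum of counts was used, because a read can enter more than one, and both runs of a conditional pool were summed by library number. The plan did not foresee transcript counts.

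Tests used edgeR 4.0.16 under R 4.3.3 (filterByExpr, TMM, quasi-likelihood F test), each comparison on its own 4 pools and each interaction on 8, with the Benjamini-Hochberg adjustment over all genes tested and a threshold of 0.05. Normalized counts are counts scaled by TMM library size over all 14 pools. Errors are SEs of the fit. With 2 pools a group, the smallest p of an exact permutation test is 0.333. On simulated counts, 71% of genes changed by a log2 fold change of 1 in LV, 70% in 4V and 68% in Otx2+/GFP ChP were called. Every simulated gene had the same coefficient of variation between pools. The common value fitted to the data was 0.152 in LV, 0.117 in 4V and 0.128 in Otx2+/GFP ChP. These shares are therefore not the power for a given gene, least of all for those with few counts. Alternatives were DESeq2 1.42.0, its size factors, total counts, no filter, summed transcripts, files as attached, a joint fit of all groups in a run, a block for the pool letter, and each pool left out. The crossed letters were added after seeing the data.

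The members, lists and tests were chosen with earlier results of these data known. All members are named. Genes of the 5 lists were named where they passed in LV, 4V or Otx2+/GFP ChP, up to 6 a list. Genes of the lists that passed only in another comparison were named after their values were seen.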

Additional observations from a re-analysis of the deposited data

How the results depend on the processing

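Without a pool, the lone remaining pool of a group is assumed to vary like the other group. The number of the 9 genes called ranged over the pools left out from 0 to 1 in LV, 2 to 2 in 4V, 0 to 3 in Otx2+/GFP, 0 to 1 in Otx2+/AA and 0 to 3 between both mutants, and was 0 to 0 in the other comparisons. With DESeq2 size factors, 0 were called in LV. Between both mutants 0 were called with DESeq2, with total counts, in the fit of all groups and with summed transcripts. In Otx2+/AA 1 was called without the filter, and between ventricles 1 (Mdm2, at -0.44) with total counts. Over the alternatives other than the files as attached, the number of all genes called ranged from 321 to 1012 in LV, 905 to 3114 in 4V, 395 to 2539 in Otx2+/GFP, 18 to 549 in Otx2+/AA, 248 to 790 between both mutants, 400 to 2288 between ventricles, 0 to 31 for treatment and ventricle, and 80 to 1048 for knockdown and model.

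The labels do not say that a pool letter marks a shared batch, and same-letter pools correlated at -0.128 in LV, 0.150 in 4V, 0.359 in Otx2+/GFP, 0.0771 in Otx2+/AA, 0.0800 between mutants and 0.0744 between ventricles. With the letter as a block, 5 of the 9 genes were called in Otx2+/GFP (Cdkn1a, Eda2r, Mdm2, Phlda3 and Trp53inp1), where the share of all genes called rose from 3.53% to 17.4%, 1 in Otx2+/AA (Cdkn1a, adjusted p 0.0182 in edgeR), where it rose from 0.345% to 3.79%, and 1 between mutants (Trp53inp1 in place of Eda2r), with 3.61% of all genes. LV, 4V, ventricle and interaction calls remained at 1, 2, 0 and 0. The share of all genes called rose from 3.24% to 4.15% in LV, from 10.7% to 21.4% in 4V and from 7.44% to 15.7% between ventricles. For treatment and ventricle it went from 0.00642% to 0.0128%, and for knockdown and model from 1.64% to 6.84%. With the letters crossed in LV ChP, 1 was called (Mdm2), beside 6.75% of all genes.

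With the files as attached, where each pool joins files that differ far beyond sampling noise, 4 of the 9 genes were called in LV, 4 in 4V, 2 between ventricles, 3 for treatment and ventricle and 4 for knockdown and model, beside 44.9%, 58.8%, 32.6%, 34.2% and 30.4% of all genes. Signs turned in LV for Mdm2 (-0.14), Ccng1 (0.18), Sesn2 (0.45), Cdkn1a (-0.495), Bax (-0.329) and Trp53 (-0.0822), and in 4V for Mdm2 (-0.475), Ccng1 (0.0795), Trp53inp1 (-0.29), Eda2r (-0.38), Cdkn1a (-0.18), Bax (-0.265), Sesn2 (0.152), Plk3 (-1.10), Perp (0.45), Gdf15 (-0.78), Mcl1 (-0.31) and Glb1 (0.65). Between ventricles they turned for Ccng1 (-0.0772), Sesn2 (-0.65), Trp53 (-0.199), Trp53inp1 (-0.102), Plk3 (0.24), Igfbp3 (-0.24) and Igfbp5 (-0.32). In the interaction with ventricle they turned for Mdm2 (0.33), Ccng1 (0.0929), Trp53inp1 (0.56), Eda2r (0.464), Phlda3 (-0.305), Bax (-0.0679) and Sesn2 (0.292), and in that with model for Mdm2 (-0.81), Eda2r (-1.87) and Bax (-0.0363).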
